A study of Mus musculus with 6 samples.

Results

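The ISG15 conjugation system was described here through its 5 mouse genes, Isg15, Uba7, Ube2l6, Herc6 and Usp18, each taken as the row of the count table that carries its symbol. All 5 symbols stood on 1 row each, out of 23282 gene rows, and all 5 were among the 12191 genes with enough counts to be tested. The libraries came from TC-1, a mouse line derived from lung cells transformed with papillomavirus oncogenes and activated ras, grown in RPMI with serum. The control group was untreated (3 libraries). The other group received murine recombinant interferon-gamma (IFN-gamma) at 20 ng/ml for 72 h (3 libraries). Libraries are called U1 to U3 (untreated) and G1 to G3 (IFN-gamma) by replicate number. No genetic change separates the groups, and both consist of a single cell line, which limits what they model.

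ISG15 is a small ubiquitin-like protein that is joined to lysines of other proteins by an enzyme cascade resembling that of ubiquitin. UBA7 activates it as the E1 enzyme, UBE2L6 carries it as the E2 enzyme, and HERC6 is the main ISG15 ligase (E3) in the mouse, which lacks the HERC5 used by human cells. USP18 removes ISG15 from its targets and, apart from that activity, binds a chain of the type I interferon receptor and dampens its signalling. The system is known chiefly as a product of interferon-stimulated transcription in infected or inflamed tissue.

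Totals ranged from 7302687 to 10861336 counts per library. The labels call the line lung adenocarcinoma, but its counts held few transcripts of lung epithelium. Of 15 epithelial and adenocarcinoma markers, 3 were tested, and the summed level of the 15 was 17.4 to 20.7 CPM (counts scaled to an equal total in every library) in untreated and 9.56 to 12.3 CPM in IFN-gamma libraries. Sftpa1, Sftpb, Sftpd and Napsa had 0 counts in all libraries, and Sftpc and Nkx2-1 had 1 untreated count each. The largest part of the sum was Krt19, with 373 untreated and 229 treated counts. It was lower (log2 fold change -0.81, adjusted p = 0.00299 in edgeR's quasi-likelihood test). Krt8 (39 and 22 counts) and Muc1 (24 and 54) were tested and did not pass, and Krt7 (32 and 6) was not tested. The sum of 8 mesenchymal markers was 9747 to 10300 CPM without treatment and 7040 to 7434 CPM with it, with 1 marker higher and 4 lower, among them Col3a1 (log2 fold change -1.83) and Vim (-0.49), and its part in the results was not tested. The 13 myeloid markers with a row summed to 40.1 to 49.1 CPM without treatment and to 72.9 to 81.3 CPM with it, and the part of such cells in the results was not tested. That rise came with Mpeg1, which went from 2 to 762 counts, and Cd68, from 170 to 296. The call of Cd68 (edgeR adjusted p = 0.0229) was lost with DESeq2 (0.0583) and in edgeR without U1, U2 or G2 (0.0615, 0.111 and 0.156). Cd14, the largest part of the untreated sum, had 1006 and 1106 counts and did not pass (edgeR adjusted p = 0.838). The leukocyte gene Ptprc had 0 and 2 counts, the macrophage gene Adgre1 0 and 1, and Fcgr1, Marco and Siglecf were at 0 throughout. Lymphoid markers (11) summed to at most 0.645 CPM and endothelial markers (6) to at most 2.38 CPM in any library.

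IFN-gamma raised all 5 genes of the system in these cells, between 6.41-fold and 10.8-fold. By fitted fold change, Isg15, Uba7 and Usp18 lay between 10.4-fold and 10.8-fold, Herc6 at 8.76-fold and Ube2l6 at 6.41-fold. In each case the lowest treated library lay far above the highest untreated one. In edgeR's quasi-likelihood test 9.88% of all tested genes were higher and 7.56% lower at an adjusted p under 0.05. All 5 members were higher by at least 4-fold, as were 1.44% of the tested genes, and 2.67% were higher by at least 2-fold. All treated libraries lay above all untreated ones in 12.9% of the tested genes. The median log2 fold change was 3.38 over the 5 members and -0.01 over all genes tested. Values below are CPM by library in the order of replicate number, and adjusted p-values come from the same edgeR fit, corrected by the Benjamini-Hochberg method over all genes tested. Nothing in the labels tells whether replicates were grown as separate cultures, so each p measures only how these 6 libraries vary, and that variation may be technical. More or fewer cells that carry a transcript cannot be told apart from more or less transcript per cell in such bulk samples.

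The modifier itself, Isg15, stood at 78.3, 83.7 and 81.9 CPM in the untreated libraries and at 922, 819 and 815 CPM in the IFN-gamma libraries. The untreated cells thus already held a clear basal level, with 611 to 757 counts per library, and the group ranges lay far apart. Its mean went from 81.3 ± 2.75 to 852 ± 61.0 CPM (SD, n = 3 libraries per group), a log2 fold change of 3.43 ± 0.07 (standard error; adjusted p = 1.16e-34). Of all 12191 tested genes it ranked 80 by log2 fold change.

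Uba7, which encodes the E1 enzyme that activates ISG15, read 8.23, 7.94 and 7.57 CPM without treatment and 91.4, 73.9 and 84.2 CPM with it. The untreated libraries agreed closely, with a coefficient of variation of 4.18%, and the treated ones varied more, by 10.6%. The log2 fold change was 3.43 ± 0.13 (adjusted p = 1e-24), rank 79, next to Isg15 in the order of all genes.

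Ube2l6 encodes the E2 enzyme, which takes ISG15 from UBA7 and hands it to the ligase. It had 18.6, 19.2 and 16.6 CPM in untreated and 110, 107 and 121 CPM in treated libraries. The log2 fold change of 2.68 ± 0.10 (6.41-fold, adjusted p = 4.75e-24) was the smallest of the 5 and ranked 129.

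Herc6, the gene of the mouse ISG15 ligase, had 15.6, 19.2 and 12.3 CPM in untreated and 137, 119 and 142 CPM in treated libraries. It was the most variable member without treatment, with a coefficient of variation of 21.8%, against 3.38% to 7.61% for the other 4 genes. The groups were still well separated, with a log2 fold change of 3.13 ± 0.12 (8.76-fold, adjusted p = 3.49e-22, rank 102).

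Usp18, the gene of the ISG15 protease, had 10.8, 12.2 and 10.8 CPM in untreated and 131, 103 and 105 CPM in treated libraries. G1 was the highest for Usp18, Isg15 and Uba7 alike, while Ube2l6 and Herc6 were highest in G3. The log2 fold change of Usp18 was 3.38 ± 0.12 (10.4-fold, adjusted p = 1.34e-25, rank 84).

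**Figure D1:**
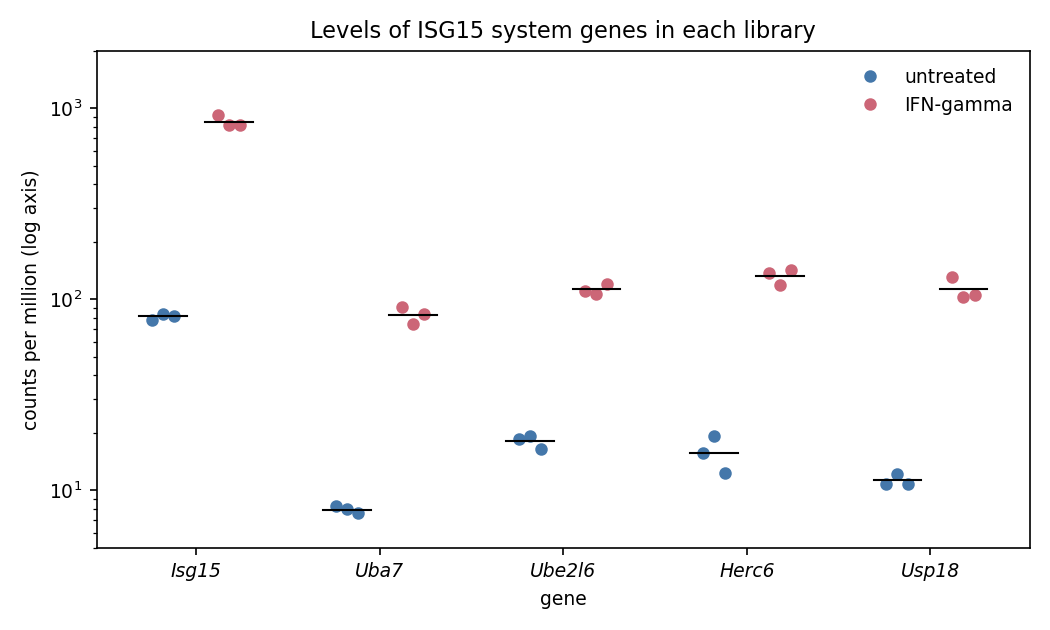
Level of each gene in every library in CPM (log axis); points are libraries (3 untreated, 3 IFN-gamma) and black lines are group means. All treated points lie above all untreated points of the same gene, and the untreated points of Herc6 spread from 12.3 to 19.2 CPM. Levels of different genes are not corrected for transcript length.

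Together the 5 genes held 0.0134 ± 0.00069% of all counts without treatment and 0.129 ± 0.0088% in IFN-gamma libraries (SD, n = 3). Isg15 made up 60.6 ± 2.5% of the members' summed counts without treatment and 65.9 ± 1.4% with it. These shares are of counts, which are not corrected for length, so they do not rank the genes by molecules.

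Ratios of 2 members within a library do not depend on library size, scaling factor or transcript length when they are compared between groups, and so show whether members changed unequally. Isg15 had 9.51, 10.5 and 10.8 counts per Uba7 count in untreated libraries and 10.1, 11.1 and 9.67 in treated ones. The modifier and its E1 thus overlapped fully, and the mean log2 ratio changed by -0.00094, against an SD of 0.0995 within groups (exact two-sided permutation p = 1). Isg15 had 7.25, 6.87 and 7.57 counts per Usp18 count without treatment and 7.03, 7.94 and 7.77 with it, again with overlap (change 0.07, within-group SD 0.083, exact permutation p = 0.4).

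Ube2l6 differed most from the other members in these ratios. Isg15 had 4.21, 4.36 and 4.95 counts per Ube2l6 count in untreated libraries and 8.39, 7.64 and 6.74 in treated ones, with no overlap and a change in mean log2 ratio of 0.75 (within-group SD 0.14). The ratio of Uba7 to Ube2l6 moved by 0.75 as well, from between 0.414 and 0.458 to between 0.689 and 0.832. The ratio of Ube2l6 to Usp18 fell by 0.68 and that of Ube2l6 to Herc6 by 0.46, both with groups that did not overlap. These 4 pairs with Ube2l6 all reached an exact two-sided permutation p of 0.1, the smallest that 3 against 3 libraries allow, and an adjusted p of 0.25 over the 10 pairs compared. The 3 pairs of Herc6 with Isg15, Uba7 and Usp18 changed by 0.29, 0.29 and -0.22 and overlapped between groups (exact permutation p of 0.2, 0.2 and 0.3).

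**Figure D2:**
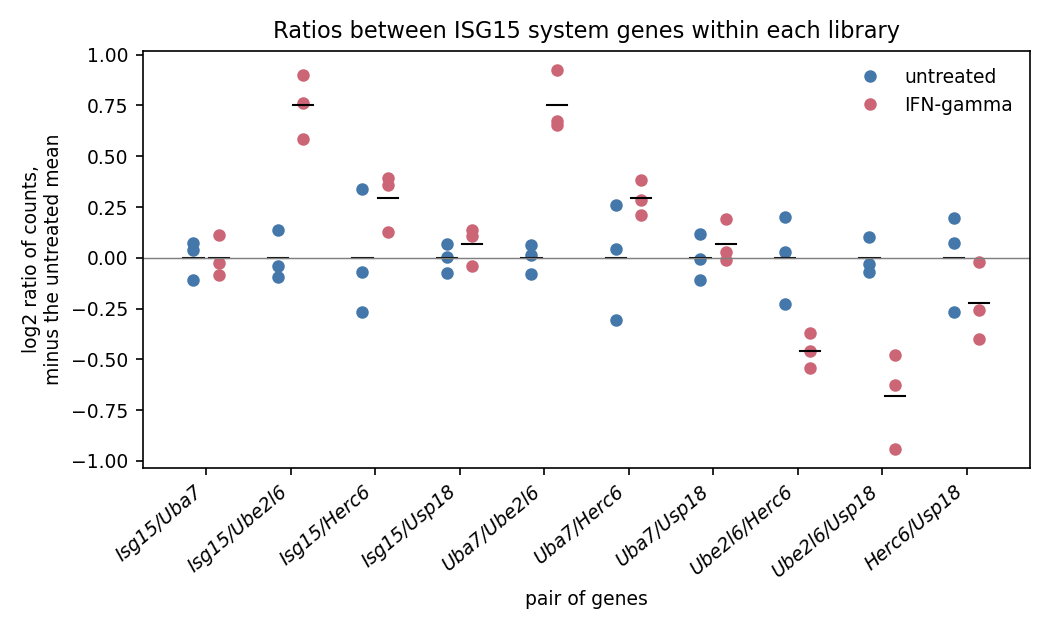
Log2 ratio of the counts of 2 genes within each library, minus the mean of the untreated libraries, for the 10 pairs; points are libraries and black lines group means. The 4 pairs with Ube2l6 show treated points apart from the untreated ones, with changes of 0.75, 0.75, -0.46 and -0.68, and the other pairs overlap.

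Since the members moved together, the sequence before their transcription start was read from a set of RefSeq promoter sequences (GRCm38.p6). That set held an entry for 4 of the 5 genes and none for Usp18. Each window ran from 250 bases before to 50 bases after the start. The letters searched on both strands were the core of the interferon-stimulated response element (ISRE), which is GAAA, any 2 bases and GAAA again and is bound by interferon regulatory factors, and TTCNNNGAA, the palindromic core of the gamma-activated site. The shorter AANNGAAA, which lies within the first, was added after the sequences had been seen. Of 32851 such windows in the table, 3.44% held the ISRE core, 8.3% held TTCNNNGAA and 23.9% held AANNGAAA. The 150 bases before the start are shown for the 4 genes because they show how unlike these promoters are, each read 5′ to 3′ on its gene's strand, with matches to the ISRE core or AANNGAAA in capitals. Isg15 lies on the minus strand at chr4:156200819-156200968, and Uba7 (chr9:107975417-107975566), Ube2l6 (chr2:84798678-84798827) and Herc6 (chr6:57580842-57580991) lie on the plus strand.
Isg15: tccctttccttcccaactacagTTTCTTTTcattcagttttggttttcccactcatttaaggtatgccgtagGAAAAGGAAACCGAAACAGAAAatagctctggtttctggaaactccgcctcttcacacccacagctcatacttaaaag
Uba7: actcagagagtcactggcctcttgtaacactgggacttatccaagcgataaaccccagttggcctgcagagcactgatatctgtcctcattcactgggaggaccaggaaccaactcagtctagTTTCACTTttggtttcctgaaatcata
Ube2l6: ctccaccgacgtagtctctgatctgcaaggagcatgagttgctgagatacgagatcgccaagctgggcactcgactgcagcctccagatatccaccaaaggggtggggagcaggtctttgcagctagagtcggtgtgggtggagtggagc
Herc6: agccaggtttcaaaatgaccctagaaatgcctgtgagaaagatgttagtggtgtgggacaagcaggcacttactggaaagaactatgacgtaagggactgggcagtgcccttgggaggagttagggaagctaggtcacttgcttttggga

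The Isg15 window held 3 overlapping matches to the ISRE core, which start 78, 72 and 66 bases before the transcription start and form an unbroken run of repeated GAAA units. It also held a separate AANNGAAA match on the opposite strand, seen as TTTCTTTT. Uba7 held a single AANNGAAA match, also on the opposite strand and seen as TTTCACTT. The Ube2l6 and Herc6 windows held neither, and none of the 4 held TTCNNNGAA. GC content over the bases shown was 42.0% for Isg15, 47.3% for Uba7, 58.0% for Ube2l6 and 49.3% for Herc6. A match is a description of letters and not of binding, and the absence of one says only that these letters are not in this window.

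Each member was then set against its own enzyme family, with log2 fold changes ± standard errors here and for the other gene lists. Among 10 E1 genes, all tested, the change of Uba7 was the largest, and the median log2 fold change was 0.18. Uba1, the main ubiquitin E1, was higher by 0.16 ± 0.05 (adjusted p = 0.0342), a call lost without U1, U2 or U3 or G2 (adjusted p of 0.157, 0.0941, 0.0805 and 0.0856). Uba6, which activates both ubiquitin and FAT10, had 0.23 ± 0.11 (adjusted p = 0.173, and 0.0361 without G3).

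Of 37 rows whose symbols start with Ube2, 32 were tested, 4 were higher and 2 lower, against 9.88% and 7.56% of all genes tested. The median log2 fold change of the Ube2 rows was 0.03. The closest paralog of Ube2l6, the ubiquitin-carrying Ube2l3, had 0.06 ± 0.07 (adjusted p = 0.641), with 145 ± 5.88 CPM in untreated and 146 ± 6.68 CPM in treated libraries. Besides Ube2l6 the higher rows were Ube2e1 (0.33 ± 0.09), Ube2d3 (0.25 ± 0.06) and Ube2q1 (0.22 ± 0.07). Lower were Ube2ql1 (-0.36 ± 0.12) and Ube2c (-0.30 ± 0.06), the E2 of the anaphase-promoting complex. The call of Ube2e1 was lost without U3 (adjusted p = 0.055). That of Ube2q1 was lost without U1 or U3 or G1 or G2 (adjusted p of 0.0839, 0.104, 0.0781 and 0.077). Ube2ql1 was lost without U1 or U3 or G1 or G3 (adjusted p of 0.174, 0.0832, 0.05 and 0.143), which left 1 row lower.

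Of the 5 HERC genes, all tested, Herc6 was the one that passed. The large HERC proteins are encoded by Herc1 (-0.13 ± 0.09, adjusted p = 0.368) and Herc2 (-0.01 ± 0.08, adjusted p = 0.957). The small HERC genes Herc3 and Herc4 had 0.14 ± 0.40 (adjusted p = 0.868) and 0.06 ± 0.14 (adjusted p = 0.838), and Herc3 was scarce, with 68 untreated and 79 treated counts.

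Of 56 rows with a Usp symbol, 45 were tested, 5 were higher and 1 lower, against 9.88% and 7.56% of all genes tested. After Usp18, the highest were Usp25 at 1.00 ± 0.09 (adjusted p = 1.62e-11), which went from 43.1 ± 0.78 to 83.7 ± 5.45 CPM, and Usp42 at 0.69 ± 0.09 (adjusted p = 7.17e-08). Both are ubiquitin proteases. Usp10 (0.31 ± 0.10) and Usp16 (0.30 ± 0.09) were higher by less. Usp10 was lost without U1, U2 or U3 or G1 or G2 (adjusted p of 0.0671, 0.0817, 0.0815, 0.0714 and 0.189), and Usp16 without U1 or U2 or G2 (adjusted p of 0.0642, 0.0822 and 0.0726). The lower row was Usp2 (-0.62 ± 0.18, adjusted p = 0.011), lost without U3 (adjusted p = 0.193) or G1 (adjusted p = 0.0794). With these losses 3 rows were higher without U2 or G2, and 0 were lower without U3 or G1, while 2 were lower without G2. The symbol rule also took in Ube2cbp and Usp6nl, which are named after an E2 and a protease without being one.

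**Figure D3:**
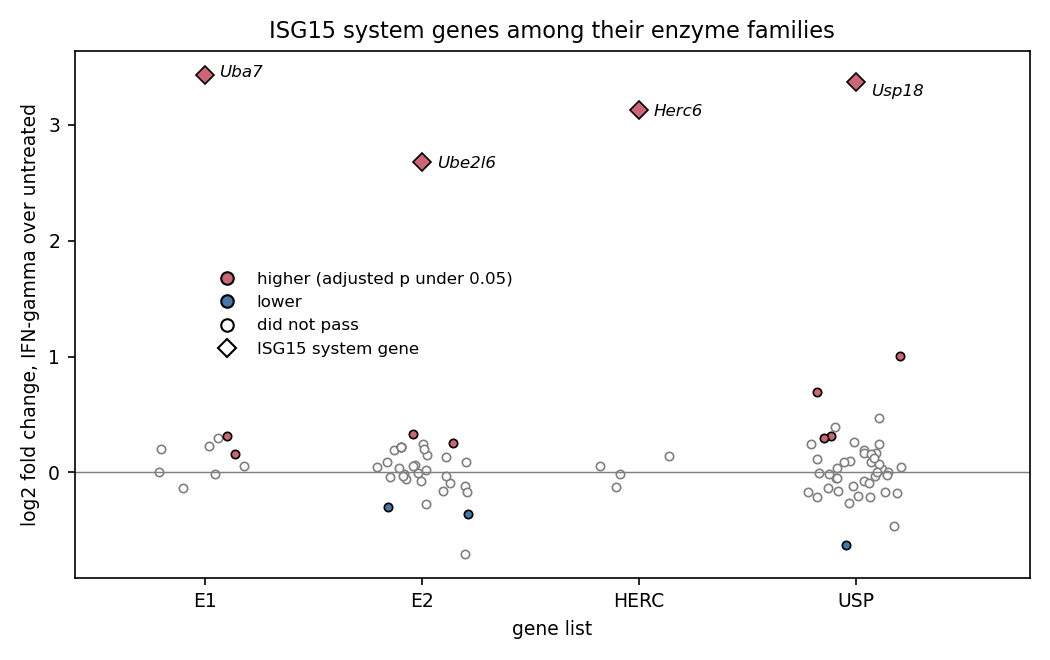
Log2 fold change of every tested gene of the E1 (10), E2 (32), HERC (5) and USP (45) lists; diamonds are genes of the ISG15 system, filled points passed the threshold of 0.05. The 4 diamonds lie between 2.68 and 3.43, and the highest other point is Usp25 at 1.00.

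Parallel conjugation systems were read in the same fit, in which 9.88% of all tested genes were higher and 7.56% lower. Of 16 SUMO system genes tested, 1 was higher and 0 lower, with a median log2 fold change of -0.02. The gene was Sumo3 (0.18 ± 0.05, adjusted p = 0.0112), lost without U1 or U3 (adjusted p of 0.0663 and 0.0733). Of 10 NEDD8 system genes, 0 passed in edgeR in either direction, 0 at an unadjusted p under 0.05 and 0 with DESeq2 or limma, with a median of 0.05, although 1 was lower without G3 (Cops5, adjusted p = 0.047). Of 10 genes for conjugation of ATG12 and ATG8 in autophagy, 0 passed in edgeR, DESeq2 or limma and 1 had an unadjusted p under 0.05 in edgeR, with a median of 0.07, although Atg7 was higher without U2 (adjusted p = 0.0445).

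FAT10 is the other ubiquitin-like modifier known for induction by IFN-gamma, and its gene Ubd had 0, 6 and 0 counts without treatment and 18, 17 and 5 with it. The groups overlapped, since U2 held all 6 untreated counts and G3 held 5, and Ubd was too scarce to be tested in the main edgeR fit. Of the FAT10 genes, Uba6 and Ube2z were tested. Both had an unadjusted p under 0.05, but 0 passed after adjustment in edgeR, DESeq2 or limma. The E2 of FAT10, Ube2z, had 0.20 ± 0.08 (adjusted p = 0.0801, and 0.0471 without U3). Of the list, 1 gene was higher without U2 and 1 without U3, 2 were higher without G3, and 1 was higher with no filter on low counts. Uba6 passed only without G3 and Ube2z only without U3. Ubd was thus the gene called without U2, with no filter, and beside Uba6 without G3, from the few counts given above.

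**Figure D4:**
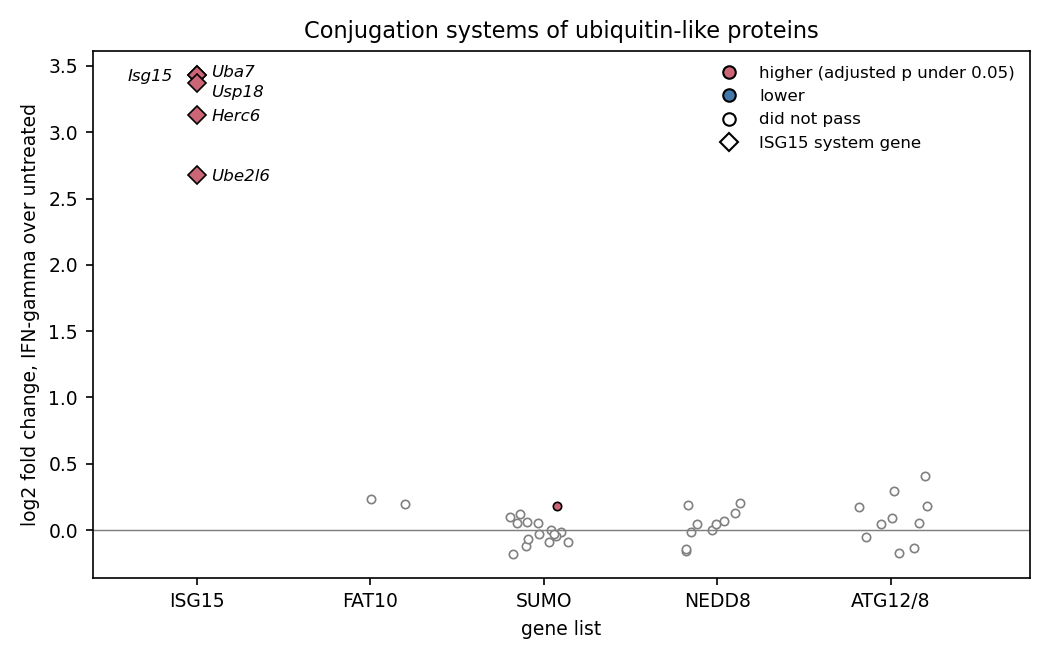
Log2 fold change of the tested genes of 5 conjugation systems; diamonds are the 5 genes of the ISG15 system and filled points passed the threshold. The ISG15 genes lie between 2.68 and 3.43, and no tested gene of the 4 other systems exceeds 0.41 (Atg10, which did not pass).

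Genes of other proteins reported to act with ISG15 or USP18 were read next. Of 13 such genes 12 were tested, 4 were higher and 1 lower, against 9.88% higher and 7.56% lower among all genes tested. The median log2 fold change of the list was 0.08. Stat2, whose protein recruits USP18 to the type I interferon receptor, rose by 2.68 ± 0.10 (adjusted p = 4.55e-25). The receptor chain gene Ifnar2, whose product USP18 binds, rose by 0.50 ± 0.08 (adjusted p = 6.94e-06), from 74.9 ± 4.56 to 103 ± 2.04 CPM. Trim25, a ubiquitin ligase that has also been reported to transfer ISG15, rose by 1.06 ± 0.07 (adjusted p = 2.11e-15), whereas Arih1, another reported ISG15 ligase, had 0.08 ± 0.07 (adjusted p = 0.512). Of the proteases reported to act on ISG15 besides USP18, Usp16 was higher and Usp2 lower, as given above with the fits that lost them, and Usp5, Usp13, Usp14 and Usp21 did not pass (adjusted p of 0.726, 0.338, 0.402 and 0.124). Itgal, which encodes a chain of the LFA-1 integrin that binds extracellular ISG15, had 1 untreated and 5 treated counts, and its partner Itgb2 had 33 and 25. In this list, 0 genes were lower without U3 or G1, and 2 without G3, when Skp2 also passed (adjusted p = 0.0274).

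Genes of proteins that have been reported to carry ISG15 were read as well. Of 18 tested, 6 were higher, against 9.88% of all genes tested, and the median log2 fold change of the list was 0.07. Among the higher ones were the RNA sensor genes Ddx58 (from 51.0 ± 2.56 to 199 ± 12.6 CPM) and Ifih1 (log2 fold change 1.88 ± 0.11), and then the RNA-dependent kinase gene Eif2ak2 (1.62 ± 0.10), all themselves interferon-stimulated. The cyclin gene Ccnd1 (0.61 ± 0.05) and Chmp5 (0.29 ± 0.07), of the ESCRT machinery, were higher by less. Irf3, a transcription factor that ISG15 is reported to stabilise, had -0.07 ± 0.15 (adjusted p = 0.819).

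Of 13 regulators known to act upstream of the system's genes, 7 were higher and 0 lower, against 9.88% and 7.56% of all genes tested. The transcription factor genes Irf7 (3.91 ± 0.12) and Irf1 (3.62 ± 0.07) had larger fitted changes than any of the 5 members, and Stat2 equalled Ube2l6 at 2.68. Irf9, which encodes another interferon regulatory factor, rose by 1.69 ± 0.07, from 1930 untreated to 6668 treated counts over 3 libraries each. Jak2 (0.35 ± 0.10) and Ifnar2 were also higher. Transcripts of type I and III interferons were close to absent. Of 20 such genes with a row, 15 had 0 counts in all 6 libraries and none was tested. Over the list the groups summed to 8 untreated and 20 treated counts. Ifnb1 had no untreated count and 1, 3 and 0 counts in G1, G2 and G3.

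To see which genes followed the same course, each profile of log2 CPM (TMM factors, prior count 2) over the 6 libraries was set relative to its untreated mean, and distance was the root mean square difference between profiles, among 8989 genes of at least 10 CPM on average. Isg15, Uba7 and Usp18 were 0.083 to 0.099 apart from each other, closer than any gene outside the system was to Isg15, Uba7 or Usp18. The nearest outside genes were Gvin1, a very large interferon-inducible GTPase, to Isg15 (distance 0.13), Xaf1, an antagonist of apoptosis inhibitors, to Uba7 (0.124) and AI607873, an interferon-inducible gene, to Usp18 (0.108). Trim30d and AI607873 came next for Isg15, Gvin1 and AI607873 for Uba7, and Trim30d for Usp18.

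Ube2l6 kept different company. Its nearest gene was Tapbp, which encodes tapasin of the MHC class I loading complex, at a distance of 0.0347, followed by Stat2 (0.132) and the class I-like gene H2-T22 (0.148). Tapbp went from 138 ± 8.27 to 830 ± 57.3 CPM, a log2 fold change of 2.63 ± 0.07 (adjusted p = 1e-30). Among the 3 genes nearest to Herc6 were Gm18853 and Gm17757 (both 0.174), a pair of rows with identical counts in every library. Distances describe these 6 libraries, which share the treatment contrast, and carry no test.

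**Figure D5:**
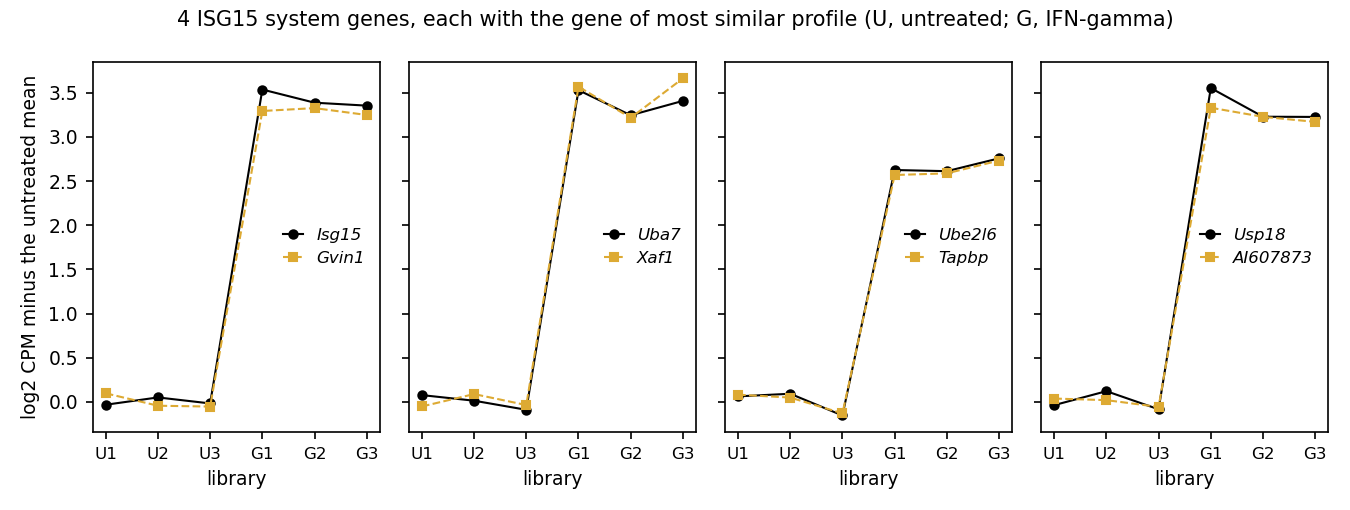
Log2 CPM minus the untreated mean in each library (U1 to U3, untreated; G1 to G3, IFN-gamma) for 4 genes of the ISG15 system (black circles) and the gene outside it with the nearest profile (yellow squares). Ube2l6 and Tapbp nearly coincide (distance 0.0347), and Isg15 and Gvin1 are the least alike pair shown (0.13).

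Whether the change extended beyond the members along the chromosome was read from their neighbours, the 2 nearest protein-coding genes on each side in RefSeq order, a choice made after the count table had been seen. Of 20 neighbours 19 were found in the table, and 7 had too few counts to be tested. Of those tested 2 were higher and 10 did not pass, while 9.88% of all tested genes were higher. Serping1, beside Ube2l6, encodes the complement C1 inhibitor and had 72 untreated and 834 treated counts, a log2 fold change of 3.42 ± 0.20 (adjusted p = 7.49e-18). Agrn, beside Isg15, encodes the basement membrane proteoglycan agrin and rose by 0.97 ± 0.09 (adjusted p = 4.32e-11). On the other side of Isg15, Perm1 had 0.23 ± 0.37 (adjusted p = 0.735) and Plekhn1 0.26 ± 0.11 (adjusted p = 0.107, and 0.049 without G3). Next to Herc6, Ppm1k (0.22 ± 0.20) and Pyurf (0.00 ± 0.17) did not pass, and next to Uba7 neither did Traip (-0.05 ± 0.16) nor Fam212a (0.03 ± 0.19). Next to Usp18, Tuba8 had 0.08 ± 0.55 and Pex26 -0.14 ± 0.23, and neither passed. GENCODE M21 places 4 less studied genes over parts of Uba7, Herc6 and Usp18, of which Gm44148 lies antisense to Usp18, and none of them has a row in the table. Reads from these could have been counted on the members. Gm20661 and Gm45193 lie on the same strand as Uba7 and Herc6, so strand would not set their reads apart. Gm19244 and Gm44148 lie on the opposite strand, and the sources used here do not say whether counting used strand.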

How the data were processed

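RNA-seq was measured in 3 untreated and 3 IFN-gamma libraries of TC-1, grouped by title and treatment label. Per the labels, each sample lists 2 library kits, one for stranded poly(A)-selected RNA and one for the 3' ends of mRNA, without saying which gave these counts, so levels of different genes were not ranked. The authors deposited raw, unnormalized counts per gene. They also deposited log2 normalized values, which lay within 0.00493 of log2(x + 1), where x is a pseudo-count that edgeR scales by TMM. Per the submitters' processing notes, Bowtie2 and edgeR were used, with no version, and the build named is hg19, a human build. The counting step is not given in the sources used here.

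The count test was edgeR 4.0.16 (R 4.3.3) with TMM factors and a robust quasi-likelihood fit without covariates, on the 12191 of 23282 rows that filterByExpr kept. P-values were adjusted by Benjamini-Hochberg, with a threshold of 0.05. The fitting code was tested on simulated data. Standard errors follow from each log2 fold change and its F statistic. CPM are counts per 1000000 of a library's total, with no scaling factor. Alternatives were other scaling factors, no filter, a non-robust fit, DESeq2 1.42.0, limma 3.58.1 on the deposited log2 values, a replicate block and leaving out each library.

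The members, lists and rules were chosen with earlier results of these data known. Named were the members, the closest paralogs, the largest changes of each list (from the enzyme families 3 higher and 2 lower, from other lists 3) and members that did not pass where at most 5 did not. Genes named beyond this, to complete a count or as single values (among them Ube2q1, Usp10, Usp16, Eif2ak2, Ccnd1, Chmp5, Arih1, Irf3 and Jak2), were chosen after their values were seen. The main fit did not pair samples by replicate number. Results for some listed genes are not reported here.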

Additional observations from a re-analysis of the deposited data

How the results depend on the processing

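All 5 members stayed higher in each of the 14 alternatives. Their log2 fold changes ranged from 3.38 to 3.47 for Isg15, 3.37 to 3.51 for Uba7, 2.61 to 2.72 for Ube2l6, 2.97 to 3.29 for Herc6 and 3.26 to 3.43 for Usp18, and each extreme came from a fit without 1 library. Over all genes, upper-quartile factors gave 957 higher and 1343 lower and total counts alone 992 and 1236, against 1204 and 922, so that 41.6% and 44.5% of the calls were higher against 56.6%. These factors moved the median log2 fold change of all genes to -0.06 and -0.05. The calls of Uba1, Usp10, Usp16, Ube2q1 and Sumo3 were lost with either (adjusted p from 0.0539 to 0.175), leaving 3 Usp rows higher, and 2 Usp rows were lower, as with a replicate block. With DESeq2, Usp10 (adjusted p = 0.0594) and Ube2ql1 (0.0735) did not pass. Samples with the same replicate number did not deviate together (correlation of deviations from -0.0014 to 0.041). With the replicate block, 1252 genes were higher and 974 lower, and all 5 members stayed higher. Genes with few counts, such as Ubd and the interferon genes, are limited by depth.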
